A study of Mus musculus with 18 samples.

Results

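The genes described here encode parts of the lysosome and of the autophagy machinery in mouse liver. They were listed by symbol, 37 in all, and each was read from the probe set with the highest mean over the 18 arrays. All 37 had such a probe set, and all 37 were bright enough to be tested, out of 18193 genes measured and 14201 tested. By role they comprise 8 proteases, 6 glycosidases and lipid-hydrolysis genes, 9 genes of the lysosomal membrane, lipid export and acidification, the regulator Tfeb, 7 genes of autophagosome initiation and conjugation, and 6 genes of ATG8 proteins and cargo receptors. The mice were males of the inbred strain C57BL/6J, aged 62 weeks, housed singly, and 3 of each group were measured on Affymetrix Mouse Genome 430 2.0 arrays. From 5 weeks of age they received a low-fat diet with 10% fat or a high-fat diet with 60% fat. On each diet food was either free (LF and HF), cut by 30% relative to what the freely fed mice of that diet ate (LF+CR and HF+CR), or free with an unlocked running wheel (LF+Ex and HF+Ex). All of them had eaten the low-fat diet in the week before, and no group carried a genetic change.

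Lysosomes are acidic compartments that break down proteins, glycans and lipids with hydrolases, and autophagy brings a cell's own cytoplasm and organelles to them inside double-membraned autophagosomes. In liver, autophagy is known to rise during fasting, and the lysosomal acid lipase is known to take part in the turnover of stored fat. Macrophages, which in the liver are mainly Kupffer cells, are rich in lysosomes and in several cathepsins, so whole-liver RNA carries lysosomal transcripts from hepatocytes and macrophages together. Fewer cells of a type and less RNA per cell cannot be told apart in such samples.

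Intensities ran from 31.1 to 21654 on a linear scale, and albumin (Alb), the defining hepatocyte transcript, lay between 17609.6 and 21654 on every array. A difference passed when limma's adjusted p (Benjamini-Hochberg over all genes tested) was under 0.05, and log2 fold changes are differences of log2(intensity + 16). Counts of genes at an unadjusted p under 0.05 are given without the share of all genes at that level. By themselves they therefore show no excess over other genes. Arrays LF+CR 2, HF 1 and HF+Ex 3 stood apart from the rest of their groups on the first principal component of all genes, and all 3 carried high macrophage signal. LF 1, LF+CR 1, LF+Ex 3 and HF+Ex 1 carried the pancreatic transcript Clps, which encodes colipase. Calls of members and of the pathway genes with the largest changes that were lost without the first 3 or the last 4 of these arrays are stated with each comparison.

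Promoters were examined because many lysosomal genes are known to be activated by TFEB, which binds an E-box with the core CACGTG. RefSeq windows on GRCm38.p6, from 250 bases before to 50 bases after a transcription start, were at hand for 30 of the 37 genes. The core CACGTG, which reads the same on both strands, occurred in the windows of 12 of these 30 genes, against 1256 of 11396 tested genes with a window and 8.09% of all 27025 genes in the table. The longer TCACGTGA, which contains that core, was present in 6 of 30, against 1.88% of tested genes. These are matches of letters, not measured binding. The windows below are of Ctsd and Lamp1, which hold several matches, of Ctsa, the only gene with a match among the 5 with a window that fell on restriction of the high-fat diet, and of Hexa, which fell most there and has none. Capitals mark TCACGTGA where it is complete and otherwise CACGTG. They lie at chr7:142387778-142388077 (minus strand), chr8:13158911-13159210 (plus), chr2:164833523-164833822 (plus) and chr9:59539290-59539589 (plus), in that order.
Ctsd: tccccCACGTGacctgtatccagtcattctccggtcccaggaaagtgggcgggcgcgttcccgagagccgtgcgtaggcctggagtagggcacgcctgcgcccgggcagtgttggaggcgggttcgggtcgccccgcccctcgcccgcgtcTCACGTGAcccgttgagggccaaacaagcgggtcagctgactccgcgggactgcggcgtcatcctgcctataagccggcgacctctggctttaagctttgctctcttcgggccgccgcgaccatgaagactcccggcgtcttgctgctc
Lamp1: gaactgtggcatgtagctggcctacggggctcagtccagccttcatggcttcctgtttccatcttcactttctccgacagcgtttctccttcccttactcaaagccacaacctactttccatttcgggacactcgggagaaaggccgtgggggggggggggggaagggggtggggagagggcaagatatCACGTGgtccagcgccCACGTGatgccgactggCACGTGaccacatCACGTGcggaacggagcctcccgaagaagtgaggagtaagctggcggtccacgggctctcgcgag
Ctsa: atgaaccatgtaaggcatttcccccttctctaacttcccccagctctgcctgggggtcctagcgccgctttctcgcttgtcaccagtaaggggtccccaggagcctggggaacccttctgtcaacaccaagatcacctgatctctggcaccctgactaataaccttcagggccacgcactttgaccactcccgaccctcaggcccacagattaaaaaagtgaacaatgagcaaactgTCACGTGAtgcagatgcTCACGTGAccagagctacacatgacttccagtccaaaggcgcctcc
Hexa: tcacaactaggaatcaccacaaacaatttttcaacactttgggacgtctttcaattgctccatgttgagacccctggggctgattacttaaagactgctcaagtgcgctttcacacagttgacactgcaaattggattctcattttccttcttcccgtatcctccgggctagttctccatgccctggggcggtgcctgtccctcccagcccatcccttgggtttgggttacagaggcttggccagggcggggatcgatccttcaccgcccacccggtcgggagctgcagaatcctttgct
In Ctsd the cores begin at positions -245 and -98 relative to the start, and in Ctsa at -12 and 6. Lamp1 holds 4 cores.

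The moderated F-test of limma for any difference among the groups passed for 9 of the 37 genes (Ctsb, Ctsd, Ctsz, Hexa, Psap, Lamp2, Scarb2, Map1lc3a and Map1lc3b), beside 14.3% of all genes tested. HF+CR had the lowest group mean for 21 of 37 genes and for 12 of the 14 hydrolases and their cofactors, and HF the highest for 15 and 8. The same order was not counted over all genes tested, so these counts have no share to be set beside. Over the 9 pairs of groups and 2 interactions, 15 genes passed at least 1 test and 22 passed none. The F-test count was 5 without HF+CR 1 or without HF+CR 2, and 1 (Hexa) without the 4 arrays with pancreatic transcripts.

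**Figure D1:**
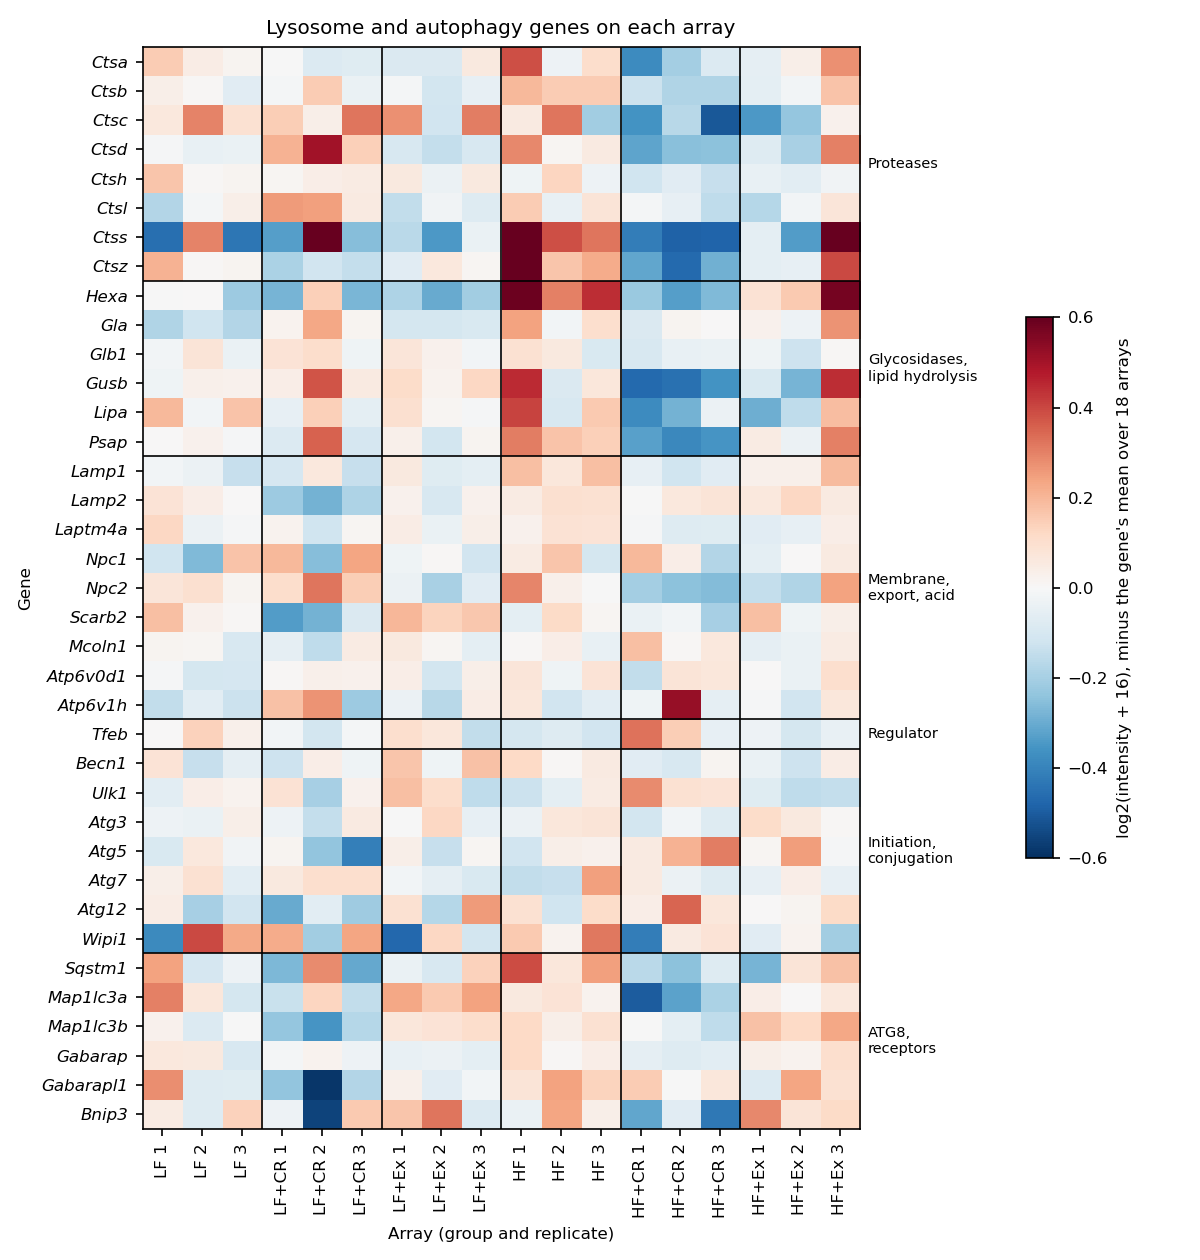
Each gene's log2(intensity + 16) on each of the 18 arrays, minus its mean over all arrays, with genes in rows by role and arrays in columns by group (red above the mean, blue below, colours saturating at 0.6). The HF+CR columns are blue through most protease and glycosidase rows, and LF+CR 2, HF 1 and HF+Ex 3 are red in many of them.

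Calorie restriction on the high-fat diet went with lower levels of lysosomal hydrolases. In HF+CR against HF, 7 of 37 genes fell (18.9%) and 0 rose, beside 6.07% of all genes tested that passed and 2.55% that fell, and 20 of the 37 had an unadjusted p under 0.05. Of the 37 log2 fold changes 31 lay below 0, with a median of -0.13 against 0.04 over all genes tested. All 14 hydrolases and cofactors lay below 0, with a median of -0.39, and 6 of them fell. Non-overlapping groups were found for 17 genes that were lower in HF+CR (13.4% of all genes tested were) and for 3 that were higher (17.9% of all).

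Among the proteases, Ctsz, Ctsb and Ctsa fell. Ctsz, an exopeptidase abundant in macrophages, read 3991, 2953 and 3065 on the 3 HF arrays and 2116, 1895 and 2148 on the 3 HF+CR arrays. Its log2 fold change was -0.68 (SE 0.12, limma adjusted p = 0.00444, or 0.622-fold). Every HF array lay above every HF+CR array, and HF 1 was the highest of all 18. Ctsb, a broad-specificity cysteine protease, read 6187, 5995 and 5991 in HF and 4938, 4759 and 4760.3 in HF+CR, a log2 fold change of -0.33 (SE 0.07, limma adjusted p = 0.00918). The HF+CR arrays were the lowest 3 of the 18 for Ctsb, and the HF arrays lay close together. Ctsa, a serine carboxypeptidase that also protects other lysosomal enzymes, read 1309.7, 979 and 1078 in HF and 766, 866 and 943 in HF+CR (log2 -0.37, SE 0.10, limma adjusted p = 0.046). Its HF spread was wide, with HF 1 well above HF 2 and HF 3. Without HF 1, HF+Ex 3 and LF+CR 2 the log2 fold change of Ctsa was -0.26 (limma adjusted p = 0.128), that of Ctsz was -0.55 (0.00164) and that of Ctsb was -0.31 (0.00805).

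Of the other 5 proteases none passed in this comparison, although all lay below 0. The aspartic protease Ctsd read 2376, 1959.9 and 2018 in HF and 1561, 1630.1 and 1635 in HF+CR (log2 -0.39, SE 0.11, limma adjusted p = 0.0525), with no overlap of the groups. Ctss, a cysteine protease of antigen-presenting cells, had the most negative value of all members, with 2161, 1769 and 1694 in HF and 1009, 960.0 and 964 in HF+CR (log2 -0.92, SE 0.35, limma adjusted p = 0.121). Its groups did not overlap, but its standard error was the widest of the members, with some arrays far above the rest of their group: LF 2 read 1664, LF+CR 2 read 3134 and HF+Ex 3 read 2554. Ctsc, Ctsh and Ctsl had log2 fold changes of -0.40, -0.13 and -0.13.

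Hexa, Psap and Gusb fell among the glycosidases and lipid-hydrolysis genes. Hexa encodes the alpha subunit of beta-hexosaminidase, which degrades GM2 ganglioside. It read 2062, 1689 and 1862 in HF and 1170.5, 1084 and 1134 in HF+CR, a log2 fold change of -0.72 (SE 0.13, limma adjusted p = 0.00473), or 0.609-fold. For comparison it read 1363, 1368 and 1172 in LF, 1124, 1511 and 1127 in LF+CR, 1202, 1106 and 1181 in LF+Ex and 1451, 1526 and 2042 in HF+Ex. The HF arrays stood above every LF, LF+CR and LF+Ex array, and the HF+CR arrays overlapped those of LF+CR and LF+Ex. Psap, the precursor of the saposins that present lipids to these enzymes, read 3251, 2960.2 and 2899 in HF and 2092, 2005 and 2047 in HF+CR (log2 -0.56, SE 0.11, limma adjusted p = 0.0063). Its 3 HF+CR arrays were the lowest of the 18, tightly grouped. Gusb, beta-glucuronidase, read 441, 299 and 335 in HF and 226, 229.6 and 245 in HF+CR (log2 -0.57, SE 0.15, limma adjusted p = 0.0422). The HF+CR arrays were again the lowest 3 and HF 1 the highest.

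The acid lipase Lipa, which frees fatty acids from stored esters, read 2844, 2004 and 2389 in HF and 1647, 1761 and 2089 in HF+CR, with overlapping groups (log2 -0.39, SE 0.13, limma adjusted p = 0.0901). Gla and Glb1, both galactosidases, had log2 fold changes of -0.13 and -0.08. Gla was dim, at or under the dim threshold on all 3 LF arrays, so its low values are poorly measured. Leaving out HF 1, HF 3, HF+CR 1 or HF+CR 2 left 4 genes past the threshold, and Hexa, Psap, Ctsz and Ctsb passed whichever of the 6 arrays was left out. Ctsa lost its call without each of these 4 arrays (limma adjusted p from 0.0873 to 0.222), and Gusb also without HF+CR 3 (0.0565 to 0.205). With the 4 Clps-bearing arrays left out, 5 genes passed: Hexa, Ctsz, Psap, Ctsb and Map1lc3a. These arrays belong to neither HF nor HF+CR, so the fold changes were unchanged and only the estimated spread and the adjustment differed. This fit therefore cannot show what pancreatic transcripts do to this comparison.

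**Figure D2:**
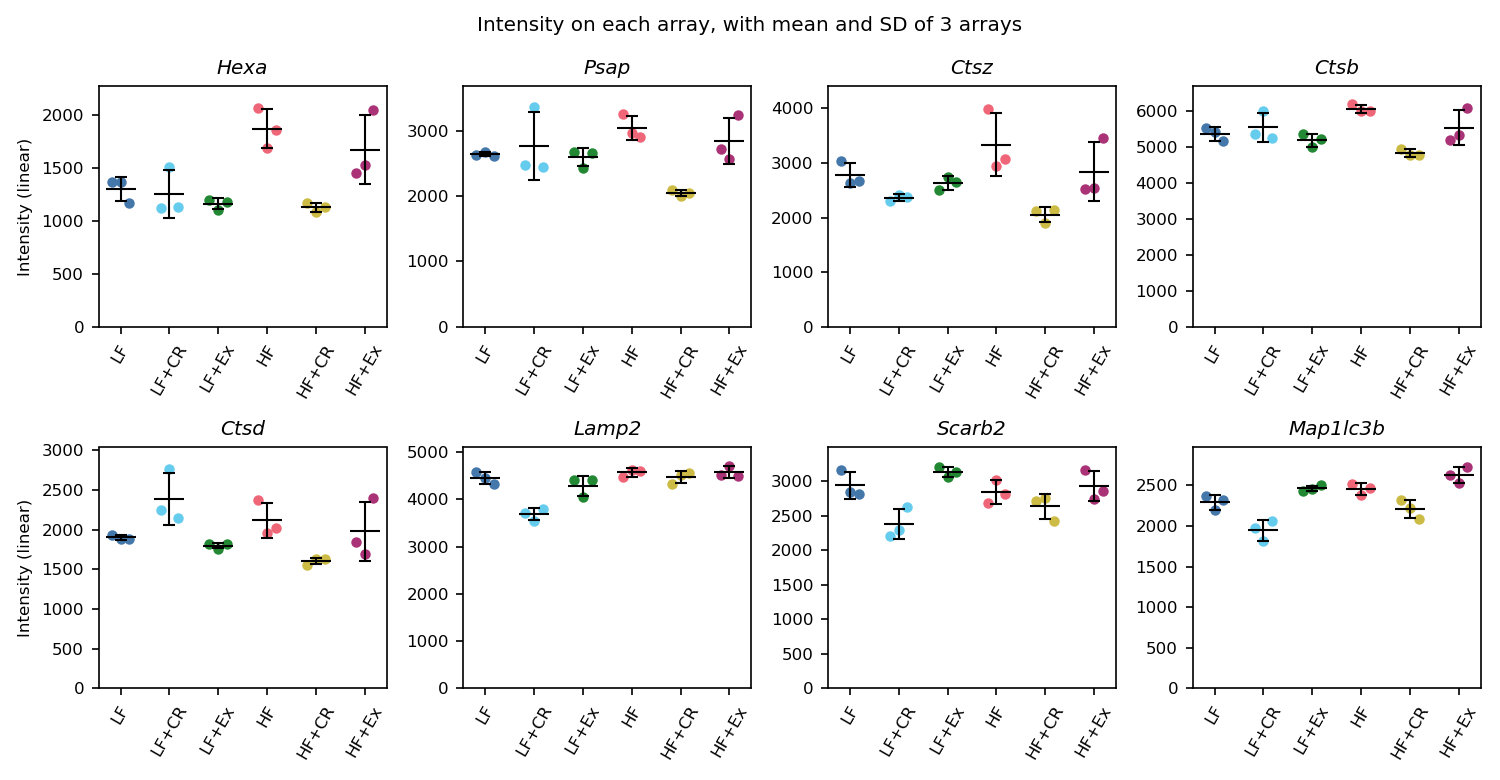
Intensity on each array (points, linear axis from 0) with mean and SD of 3 arrays (bars) for 8 genes in the 6 groups. Hexa, Psap, Ctsz, Ctsb and Ctsd are low on all 3 HF+CR arrays, while Lamp2, Scarb2 and Map1lc3b are lowest in LF+CR.

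Other probe sets of these genes mostly pointed the same way. The other bright sets of Ctsz gave log2 fold changes of -0.62 and -0.69, and that of Psap -0.65. Ctsb had 4 more, of which 3 lay between -0.70 and -0.45 and the last at 0.14. Those of Gusb (-0.21), Ctsa (-0.12) and Map1lc3a (-0.21) were closer to 0 than the sets used. Hexa and Ctsd had no second set.

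Macrophage transcripts had lower sums on the HF+CR arrays, too. The summed intensity of 12 Kupffer cell markers was 8718 to 13091 in HF and 6948 to 8239 in HF+CR, and that of 9 markers of recruited macrophages was 2875 to 4187 in HF and 2172 to 2300 in HF+CR. Of the 12 Kupffer markers 11 lay below 0 in this comparison (median log2 -0.54), 0 passed in limma and 9 had an unadjusted p under 0.05. All 12 Kupffer markers and all 9 recruited macrophage markers measured were above the dim threshold on at least 3 arrays. The defining Kupffer gene Clec4f read 1063, 1084 and 761 in HF and 771, 719 and 716 in HF+CR, and the macrophage gene Cd68 444, 295 and 257 and 182, 159 and 169.7. Of the 9 recruited macrophage markers 8 lay below 0 (median log2 -0.20), 0 passed in limma and 4 had an unadjusted p under 0.05. The exception was Trem2, a marker of lipid-associated macrophages, which read 163, 171 and 192 and 227, 183 and 177, with overlapping groups. On HF 1, LF+CR 2 and HF+Ex 3 the recruited macrophage sum was 4187, 4570 and 4215, above the 3277 that was the highest elsewhere, and the median hydrolase deviation from the mean was 0.30, 0.15 and 0.27. Without these 3 arrays 8 genes passed in HF+CR against HF, compared with 7: Ctsd, Ctss and Npc2 were added, and Ctsa and Map1lc3a were lost. The array HF 3 had a Kupffer sum of 8718, near the 8239 of HF+CR 1, and their median hydrolase deviations were 0.10 and -0.31. The recruited macrophage sums of these arrays differed, at 2917 in HF 3 and 2300 in HF+CR 1. No array had a lower median hydrolase deviation than HF+CR 1. HF 3 and HF+CR 1 are a chosen pair of arrays, which cannot show the part of macrophage transcripts in the hydrolase levels. That part was not tested.

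Markers of other liver cells also differed between these groups. The summed intensity of 8 sinusoidal endothelium markers was 4731 to 5038 in HF and 4306 to 4549.5 in HF+CR, and 2 of the 8 fell, Lyve1 (log2 -1.10, limma adjusted p = 0.00987) and Fcgr2b (-0.31, 0.0266). The sum of 8 stellate cell markers was 6172 to 7001 in HF and 5613 to 5963 in HF+CR, and none of them passed in limma, with 1 at an unadjusted p under 0.05. The hepatocyte genes Tat (log2 0.82, limma adjusted p = 0.00149) and Cps1 (0.34, 0.0165) rose among 9 tested. The sum of 8 pancreatic acinar transcripts was 1200 to 1257 in HF and 2072 to 2671 in HF+CR. Cela1, an elastase gene within that sum, rose from a mean of 427 to 1559 (log2 1.81, limma adjusted p = 0.00359). Clps, which the 4 arrays named above carried, read 59.0, 59.6 and 53.8 in HF and 58.2, 57.7 and 61.8 in HF+CR. The part of the macrophage and other cell-type transcripts in the hydrolase result was not tested.

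**Figure D3:**
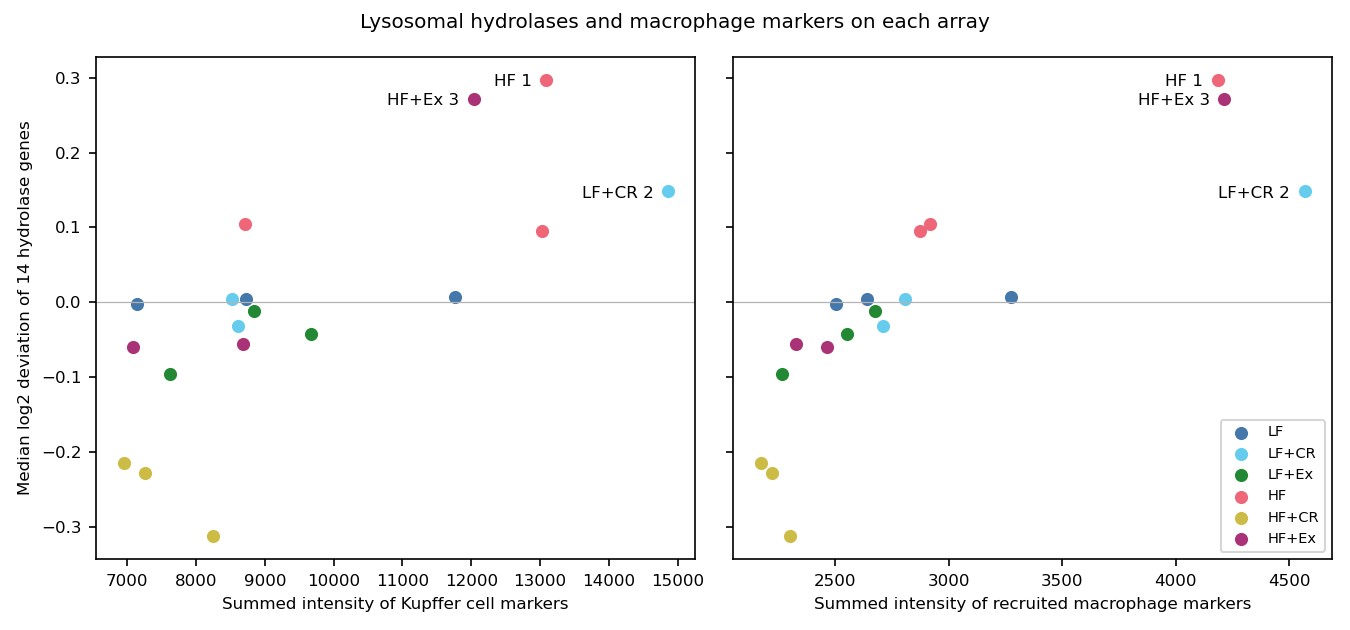
Median log2 deviation of the 14 hydrolase and cofactor genes from their means over 18 arrays (vertical axis) against the summed intensity of Kupffer cell markers (left) and of recruited macrophage markers (right), 1 point per array coloured by group. The 3 HF+CR arrays lie lowest, between -0.31 and -0.21, and HF 1, HF+Ex 3 and LF+CR 2 are highest on the vertical axis and far to the right.

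Of the 13 autophagosome genes 1 fell on restriction of the high-fat diet. All 6 genes of ATG8 proteins and cargo receptors lay below 0 (median log2 -0.25), and only Map1lc3a fell. Map1lc3a, a light chain 3 paralog that is lipidated onto autophagosomes, read 1429, 1452 and 1391 in HF and 966, 1093 and 1199 in HF+CR (log2 -0.39, SE 0.10, limma adjusted p = 0.0297). The HF arrays were nearly level, and all HF+CR arrays lay under them. This call was lost without HF 1, HF 2, HF 3, HF+CR 1 or HF+CR 2 (limma adjusted p from 0.0669 to 0.128) and without the 3 outlying arrays (0.0616). The cargo receptor Sqstm1 and the mitophagy receptor Bnip3 had log2 fold changes of -0.40 and -0.35 (limma adjusted p = 0.121 and 0.173). Of the 7 initiation and conjugation genes, Becn1, Ulk1, Atg3, Atg5, Atg7, Atg12 and Wipi1, none passed. Their values ran from -0.26 (Wipi1) to 0.21 (Atg5), with a median of -0.00. The other probe sets of Wipi1 lay between 0.09 and 0.29 and those of Atg5 at -0.19 and -0.16, opposite to the sets used.

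The membrane and acidification genes had a median of -0.04, and none of the 9 passed. Lamp1, the major glycoprotein of the lysosomal membrane, read 4809, 4454 and 4806 in HF and 4096, 3902 and 4041 in HF+CR (log2 -0.22, SE 0.07, limma adjusted p = 0.0616). Npc2, which hands cholesterol to Npc1 for export, was at -0.34 (limma adjusted p = 0.058) and Npc1 at -0.02. Laptm4a, Scarb2, Lamp2, the calcium channel Mcoln1 and the proton pump subunits Atp6v0d1 and Atp6v1h lay between -0.12 and 0.19. Tfeb, the transcription factor named above, was higher in HF+CR, at 634, 558 and 484 against 465, 476 and 463 in HF, but did not pass (log2 0.24, SE 0.08, limma adjusted p = 0.096).

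Restriction on the low-fat diet went with lower levels of 2 membrane genes and 1 ATG8 gene. In LF+CR against LF, 3 of 37 genes fell (8.11%, beside 5.57% of all genes tested that passed and 3.27% that fell), 0 rose and 7 had an unadjusted p under 0.05. None of the 14 hydrolases passed, and their median was 0.04, with 9 of 14 above 0. Those that fell were the membrane genes Lamp2 and Scarb2 and the ATG8 gene Map1lc3b. Lamp2, the receptor of chaperone-mediated autophagy, read 4576, 4452 and 4329 in LF and 3716, 3549.7 and 3800.3 in LF+CR (log2 -0.27, SE 0.05, limma adjusted p = 0.00538). LF+CR held the lowest 3 of all 18 arrays, since the other 5 groups read 4047 or more. Scarb2, the receptor that carries glucocerebrosidase to the lysosome, read 3169, 2846 and 2813 in LF and 2215, 2299 and 2630.0 in LF+CR (log2 -0.31, SE 0.08, limma adjusted p = 0.0329). Map1lc3b, the most studied light chain 3 gene, read 2364, 2192 and 2315 in LF and 1976, 1809.9 and 2059.6 in LF+CR (log2 -0.23, SE 0.06, limma adjusted p = 0.0301). Neither pair of groups overlapped. All 6 genes of ATG8 proteins and receptors lay below 0, with a median of -0.16, and the value of Gabarapl1 was -0.38 (limma adjusted p = 0.0662).

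Without the 3 outlying arrays Lamp2 still passed (log2 -0.24, limma adjusted p = 0.0372), whereas Scarb2 (-0.28, 0.121) and Map1lc3b (-0.18, 0.137) did not, and without the 4 arrays with pancreatic transcripts 0 genes passed in limma and 7 had an unadjusted p under 0.05. The count was 1 without LF 1, LF 3, LF+CR 1 or LF+CR 2 and 5 without LF+CR 3. Lamp2 passed whichever of the 6 arrays was left out. Scarb2 lost its call without LF 1, LF 2, LF 3, LF+CR 1 or LF+CR 2 (limma adjusted p from 0.0558 to 0.138), and Map1lc3b without LF 1, LF 3, LF+CR 1 or LF+CR 2 (0.0704 to 0.133). Leaving out the Clps-bearing arrays gave adjusted p = 0.10 for Lamp2, 0.229 for Map1lc3b and 0.328 for Scarb2. The other probe sets of Lamp2 gave -0.20, 0.03 and -0.04, so they disagreed with the set used, and those of Map1lc3b gave -0.29 and -0.11. The other set of Scarb2 gave -0.19. For Gabarapl1 the other set gave -0.77, a larger fall than the set used.

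**Figure D4:**
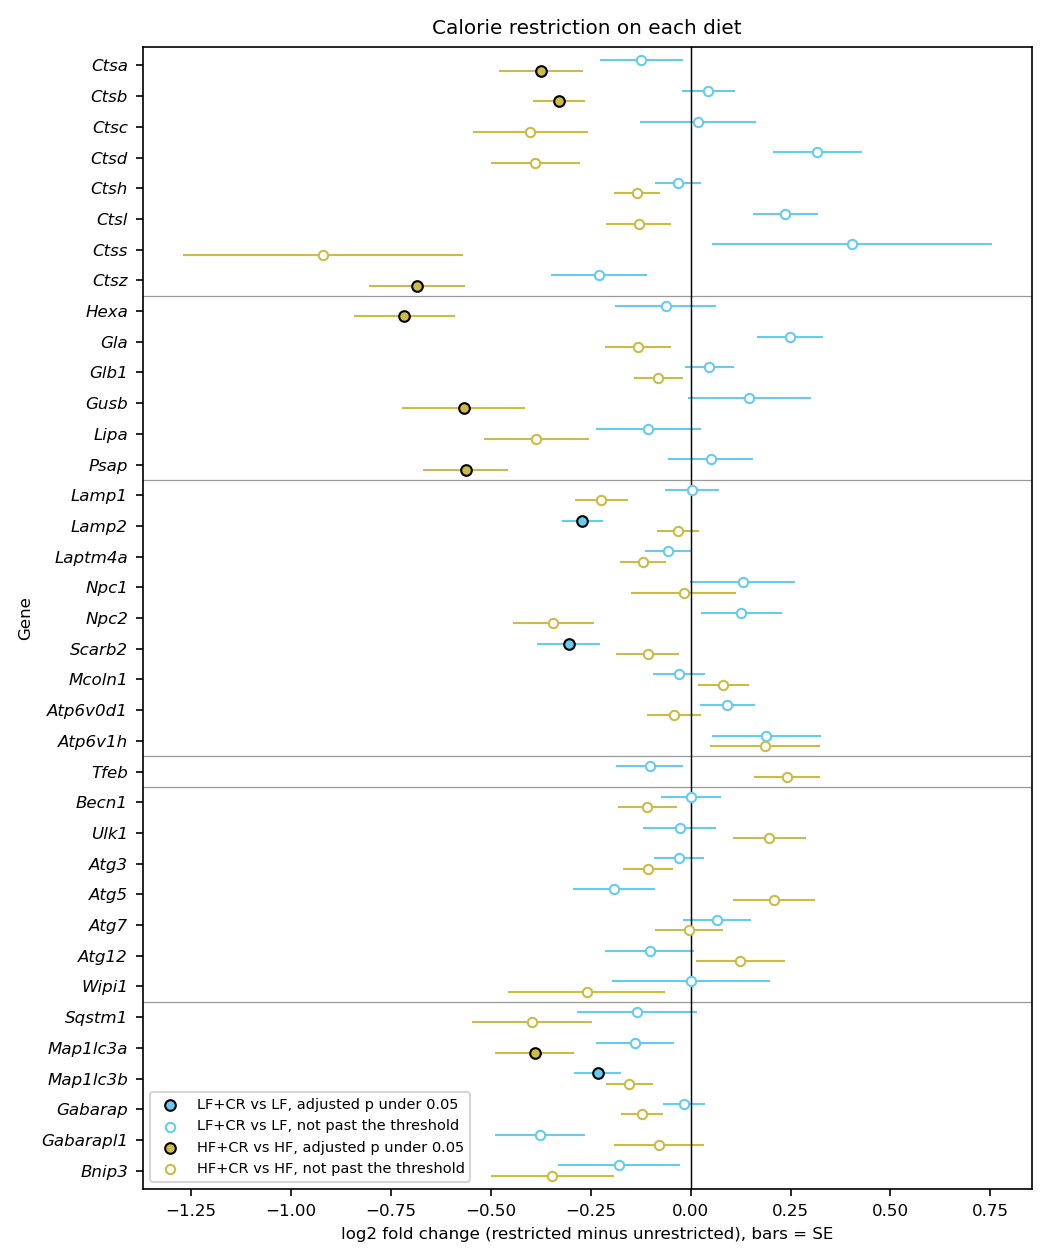
Log2 fold change with SE of each of the 37 genes for calorie restriction on the low-fat diet (LF+CR against LF, blue) and on the high-fat diet (HF+CR against HF, yellow), with filled points for an adjusted p under 0.05. On the high-fat diet all 14 proteases, glycosidases and cofactors lie left of 0 and 6 are filled, while on the low-fat diet the filled points are Lamp2, Scarb2 and Map1lc3b.

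Whether restriction acted differently on the 2 diets was tested directly by the interaction, the HF+CR minus HF difference less the LF+CR minus LF difference. It passed for 4 of 37 genes, all negative (10.8%, beside 5.75% of all genes tested that passed and 2.39% that were negative): Ctsd (log2 -0.71, SE 0.16, limma adjusted p = 0.0176), Psap (-0.61, SE 0.15, 0.0253), Ctsb (-0.37, SE 0.09, 0.0278) and Hexa (-0.65, SE 0.18, 0.0437). All 14 hydrolases lay below 0, with a median of -0.40 against 0.05 over all genes tested, and 14 of the 37 genes had an unadjusted p under 0.05. Ctsd shows the pattern in its arrays, since it read 1936, 1884 and 1889 in LF and 2248, 2769 and 2151 in LF+CR, higher with restriction, but lower with it on the high-fat diet. Each LF+CR array of Ctsd exceeded each LF array, although the log2 difference of 0.32 did not pass, and LF+CR 2 was the highest. Ctsb read 5521, 5415 and 5147 in LF and 5353, 5998 and 5254 in LF+CR, which overlapped. For Psap, 2626, 2675 and 2613 in LF and 2479, 3363 and 2444 in LF+CR overlapped, and LF+CR 2 alone was high. The interaction count was 0 without HF 1, 1 without LF 3 or HF+CR 2, and 2 without LF+CR 2 or HF 3. Without the 3 outlying arrays together it was 3 (Ctsd, Gusb and Psap), and leaving out the 4 Clps-bearing arrays gave 0 in limma, with 17 genes at an unadjusted p under 0.05.

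Ctsd lost its interaction call without HF 1 (limma adjusted p = 0.0538), and Psap without LF 3, HF 1 or HF+CR 2 (0.0555 to 0.0749). Ctsb lost it without LF 3, LF+CR 2, HF 1, HF 3, HF+CR 2 or HF+CR 3 (0.0525 to 0.0748), and Hexa without any array except LF+CR 1, LF+CR 3 or HF 2 (0.058 to 0.123). Without the 3 outlying arrays Ctsd (log2 -0.51, limma adjusted p = 0.00387) and Psap (-0.41, 0.0176) passed, and Ctsb (-0.30, 0.0666) and Hexa (-0.44, 0.0508) did not. The Kupffer markers had a median of -0.72 in this interaction, with 11 of 12 below 0, 0 past the threshold in limma and 6 with an unadjusted p under 0.05. Their part in the interaction was not tested.

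A direct comparison of the restricted groups gave 8 genes past the threshold in HF+CR against LF+CR, beside 8.93% of all genes tested: 5 were lower in HF+CR (13.5%, against 3.31%) and 3 were higher (against 5.62%). The lower ones were Ctsd (log2 -0.56, limma adjusted p = 0.00614), Psap (-0.41, 0.0229), Gusb (-0.58, 0.0272), Npc2 (-0.43, 0.0159) and the dipeptidyl peptidase Ctsc (-0.51, 0.0366). Npc2 read 1459.7, 1699 and 1505 in LF+CR and 1178, 1141 and 1132 in HF+CR. Ctsc, which activates granule proteases of immune cells, read 2277, 2107 and 2573 and 1601, 1831 and 1438, and Gusb read 328, 419 and 332 in LF+CR. For all 5 genes every HF+CR array lay under every LF+CR array. Other bright probe sets gave -0.45 and 0.12 for Npc2, -0.42 for Ctsc, -0.29 for Gusb and -0.555 for Psap. With the probe sets of a gene averaged, Npc2 and Ctsc did not pass. All 12 Kupffer markers also lay below 0 here (median log2 -0.41), with 0 past the threshold in limma and 4 with an unadjusted p under 0.05.

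The genes higher in HF+CR than in LF+CR were Lamp2 (log2 0.28, limma adjusted p = 0.00368), Atg5 (0.40, 0.0233) and Gabarapl1 (0.40, 0.0342). Lamp2 read 4328, 4519 and 4569.9 in HF+CR, at the level of the unrestricted groups. The other probe sets of Lamp2 gave smaller values, 0.24, 0.09 and 0.04. Atg5, part of the conjugation enzyme that lipidates ATG8 proteins, read 670.3, 559 and 495 in LF+CR and 687, 769 and 823 in HF+CR. Its other probe sets gave 0.00 and -0.05. Gabarapl1, an ATG8 protein, read 2660.0, 2086 and 2767 in LF+CR, with LF+CR 2 the lowest, and 3482, 3128 and 3281 in HF+CR. The other probe set of Gabarapl1 gave 0.79. Without the 3 outlying arrays Ctsd, Psap, Gusb, Npc2, Ctsc and Lamp2 passed (limma adjusted p at most 0.0491), but Atg5 (0.0769) and Gabarapl1 (0.175) did not. The count was 5 without HF+CR 1, 4 without HF+CR 2, and 3 without LF+CR 2 or HF+CR 3. Omitting the Clps-bearing arrays LF 1, LF+CR 1, LF+Ex 3 and HF+Ex 1 left 3 higher genes and 1 lower. Atg5, Lamp2, Gabarapl1 and Ctsd then passed, and Npc2 (limma adjusted p = 0.0538), Psap (0.0565), Gusb (0.0825) and Ctsc (0.107) did not.

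Restriction and running were compared within each diet. In HF+CR against HF+Ex 3 of 37 genes were lower (8.11%, beside 2.71% of all genes tested that passed and 1.31% that were lower) and 0 were higher: Hexa (log2 -0.54, SE 0.13, limma adjusted p = 0.0333), Psap (-0.46, SE 0.11, 0.0302) and Map1lc3b (-0.25, SE 0.06, 0.0371). Psap read 2716, 2563 and 3242 in HF+Ex, and Map1lc3b 2625, 2525 and 2726 in HF+Ex against 2315, 2227 and 2086 in HF+CR. HF+Ex 3 was the highest of its group for all 3 genes. Without the 3 outlying arrays Hexa (log2 -0.39, limma adjusted p = 0.0261) and Psap (-0.36, 0.00834) passed and Map1lc3b (-0.22, 0.115) did not. The count was 0 without HF+CR 1, HF+CR 2 or HF+Ex 3, 1 without HF+CR 3 or HF+Ex 1, and 0 without the 4 arrays with pancreatic transcripts, where 12 genes had an unadjusted p under 0.05.

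In LF+CR against LF+Ex 4 of 37 genes passed (beside 9.31% of all genes tested, 4.16% higher and 5.15% lower): Ctsd was higher in LF+CR (log2 0.40, SE 0.11, limma adjusted p = 0.037), and Map1lc3b (-0.34, SE 0.06, 0.00189), Scarb2 (-0.40, SE 0.08, 0.00466) and Lamp2 (-0.22, SE 0.05, 0.0151) were lower. Their LF+Ex arrays read 1820.1, 1763 and 1819.7 for Ctsd, 2436, 2461 and 2499 for Map1lc3b, 4412, 4047 and 4404 for Lamp2 and 3211, 3067 and 3134 for Scarb2. No LF+Ex array overlapped LF+CR for any of the 4. Map1lc3b and Scarb2 passed whichever of the 6 arrays was left out, and the count was 2 without LF+Ex 1 or LF+Ex 3. Ctsd lost its call without LF+CR 1, LF+CR 2 or any LF+Ex array (limma adjusted p from 0.0596 to 0.153), and Lamp2 without LF+CR 2, LF+Ex 1 or LF+Ex 3 (0.0629 to 0.07). Without the 3 outlying arrays Ctsd (0.00798), Scarb2 (0.0257) and Map1lc3b (0.0117) passed and Lamp2 (0.0763) did not, and with the Clps-bearing arrays left out Map1lc3b alone passed (0.0464). These comparisons share the LF+CR arrays with those against LF.

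No gene of the list passed between running and sedentary mice on the same diet. In LF+Ex against LF, 0 of 37 genes passed in limma (0.00704% of all genes tested did), and 0 had an unadjusted p under 0.05, with log2 fold changes from -0.23 to 0.15. In HF+Ex against HF, 0 passed (0.0% of all genes tested) and 0 had an unadjusted p under 0.05, against 10 without the 3 outlying arrays, where still 0 passed. With all 18 arrays, 28 of the 37 lay below 0 in HF+Ex against HF, including all 14 hydrolases (median log2 -0.11). The lowest member was at -0.29. The median over all genes tested is not given here for this pair. The running-by-diet interaction passed for 0 genes (0.00704% of all), with 1 at an unadjusted p under 0.05.

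The high-fat diet alone gave 0 of 37 genes past the threshold in HF against LF (0.894% of all genes tested passed), with 4 at an unadjusted p under 0.05 in limma. The members nevertheless lay mostly on 1 side, with 30 of 37 above 0 and a median of 0.08 against -0.03 over all genes tested, and with 12 of the 14 hydrolases above 0 (median 0.14). Hexa came nearest (log2 0.52, SE 0.13, limma adjusted p = 0.068), and its HF arrays all exceeded its LF arrays. Hexa was the 1 gene that passed without the 3 outlying arrays. In runners the same contrast, HF+Ex against LF+Ex, gave 0 genes (1.75% of all genes tested passed) and 3 at an unadjusted p under 0.05, with Hexa at 0.50 (SE 0.13, limma adjusted p = 0.0582) and passing without the 3 arrays. HF against LF and HF+CR against HF share the HF arrays.

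Among 22 genes that passed no pair or interaction, differences between the highest and lowest group means ran from 0.11 for Atp6v0d1 to 0.93 for Ctss on the log2 scale. Glb1, Laptm4a, Gabarap and Atg3 spanned 0.12 to 0.13, and Wipi1, Atg12, Sqstm1 and Bnip3 spanned 0.30 to 0.42. Lowest in HF+CR were Ctsh, Ctss, Glb1, Lipa, Lamp1, Laptm4a, Sqstm1, Gabarap, Bnip3, Becn1 and Atg3. Highest in HF+CR were Mcoln1, Atp6v1h, Tfeb, Ulk1 and Atg12. Atp6v1h owed its HF+CR mean to 1 array, with 663, 976 and 650.5.

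Other genes of the pathway were read from lists of 47 further lysosome genes, 14 proton pump genes, 32 further autophagy genes and 20 regulators that were tested. In HF+CR against HF, 9 of the 47 lysosome genes fell (19.1%, beside 2.55% of all genes tested) and 1 rose, with a median of -0.14. The largest were Ggh, a folate hydrolase (354.6 ± 40.04 in HF, 235.7 ± 8.78 in HF+CR, SD, n = 3, log2 -0.55, limma adjusted p = 0.00473), the arylsulfatase Arsa (log2 -0.51, 0.00452), progranulin Grn (-0.46, 0.0104) and the glycosylasparaginase Aga (-0.42, 0.0106). These 4 passed without either set of arrays, but the Clps-bearing set holds no array of HF or HF+CR. Sort1 was the lysosome gene that rose (0.42, 0.00581). None of the proton pump genes passed in limma, with 4 at an unadjusted p under 0.05, and of the further autophagy genes Atg9a, which encodes a membrane protein of the early autophagosome, rose (0.32, 0.0457). Sort1 and Atg9a were named after their values were seen and were not rerun with arrays left out. In LF+CR against LF, the lysosomal mannosidase Man2b1 fell from 3003 ± 331 to 1009 ± 88.7 (SD, n = 3, log2 -1.56, SE 0.15, limma adjusted p = 3.31e-05), and the kinase Ulk2 fell (-0.64, 0.00251). The ceramidase Asah1 rose (0.51, 0.0263) and Arsa fell (-0.42, 0.0127). Without the Clps-bearing arrays Man2b1 passed (0.00319), but Ulk2 (0.0622), Asah1 (0.132) and Arsa (0.0617) did not, and Arsa was also lost without the 3 outlying arrays (0.0501). Man2b1 was thus 3.24-fold higher in HF+CR than in LF+CR (log2 1.69, limma adjusted p = 1.23e-05), where Ulk2 was also higher (0.81, 0.000338), and Dnase2a (-1.45, 0.026) and the GM2 activator Gm2a (-0.55, 9.07e-05) were lower. Dnase2a was at -0.95 without the 3 outlying arrays (adjusted p = 0.109).

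In HF against LF, where 0.894% of all genes tested passed, 3 of these other genes were higher. They were the ATG8 protease Atg4a (log2 0.48, limma adjusted p = 0.0134), Aga (0.43, 0.0313) and the cysteine protease Ctso (0.42, 0.0188). All 3 calls were lost without the Clps-bearing arrays (Atg4a 0.16, Ctso 0.223, Aga 0.254), and those of Ctso (0.0513) and Aga (0.0564) also without the 3 outlying arrays. Running mice differed between diets in Gm2a, which was 633.3 ± 35.1 in HF+Ex and 1048 ± 65.0 in LF+Ex (SD, n = 3, log2 -0.71, limma adjusted p = 6.41e-05), in Ctso (0.48, 0.00531), in Aga (0.36, 0.0499) and in Gabarapl2 (-0.22, 0.038). Gm2a passed without either set of arrays, Ctso did not without the Clps-bearing ones (0.0517), and Aga (0.0816 and 0.20) and Gabarapl2 (0.0939 and 0.194) were lost both ways. In HF+CR against HF+Ex the sorting receptor Sort1 was higher (0.44, 0.00846), and Ctsf (-0.41, 0.00905), Arsa (-0.37, 0.0394) and Ctso (-0.31, just under the threshold) were lower. Without the Clps-bearing arrays all 4 calls were lost (Arsa 0.0529, Sort1 0.0639, Ctsf 0.0862, Ctso 0.175), and those of Arsa (0.136) and Ctso (0.138) also without the 3 outlying arrays. In LF+CR against LF+Ex, Man2b1 (-1.69, 5.46e-06), Ulk2 (-0.63, 0.0018) and Arsa (-0.51, 0.00219) were lower and Asah1 was higher (0.62, 0.00596).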

How the data were processed

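Total RNA of 18 mouse livers was extracted with Trizol and hybridised as biotinylated cRNA, per the labels' protocols. The authors deposited 1 table of linear intensities for 45101 probe sets. How they summarised and scaled the arrays is not given in the sources used here. Array medians lay within 0.153 of each other on the log2 scale. Of the probe sets, 64 controls were left out, 34945 named 1 gene, 932 named several (not used) and 9160 named none.

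Values were taken as log2(intensity + 16), which understates changes of dim genes. The probe set with the highest mean stood for a gene. Genes above the 40th percentile of an array (88.2 to 97.6) on at least 3 arrays were tested, 14201 in all. One mean per group was fitted over all 18 arrays (limma 3.58.1, run under R 4.3.3), leaving 12 residual degrees of freedom and a prior worth 3.64, with Benjamini-Hochberg adjustment over all genes tested and a threshold of 0.05. The script was tested on simulated data. With 3 mice a group, the number of arrays limits the precision.

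The members and lists were chosen with earlier results of these data known. Values of every array were given for members past the threshold in a pair of groups or an interaction, in the groups compared, and, over all pathway lists pooled, up to 4 genes with the largest change among those that passed were named in each comparison. Ctss, Lipa, Lamp1, Tfeb, Sort1 and Atg9a (HF+CR against HF) and the cell-type genes Lyve1, Fcgr2b, Tat, Cps1 and Cela1, were added after their values were seen. Alternatives were other normalizations, offsets, filters, probe set rules, variance models, array weights, a clock covariate, a replicate block, fewer groups and omitted arrays.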

Additional observations from a re-analysis of the deposited data

Results flagged for a closer look

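The change with calorie restriction differed between the diets, by limma's interaction test adjusted over all genes, for 4 members and 4 other pathway genes. The interaction (high-fat minus low-fat, log2) was -0.71 for Ctsd, -0.65 for Hexa, -0.61 for Psap and -0.37 for Ctsb. It was -0.78 for Ggh (adjusted p = 0.00415), -0.66 for Asah1 (0.0428), 1.95 for Man2b1 (9.67e-05) and 0.99 for Ulk2 (0.00143). The Asah1 value did not pass with the replicate number as a block (0.068) or without the 4 Clps-bearing arrays (0.108), whereas Ggh, Man2b1 and Ulk2 passed in both.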

How the results depend on the processing

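Sign changes were counted for 29 member results and 31 results of other pathway genes that passed, and none occurred under any alternative. Of 604 comparisons of the 29 member results with an alternative, 448 stayed past the threshold and 156 did not. Lyve1, Fcgr2b, Tat, Cps1 and Cela1, and Sort1 and Atg9a in HF+CR against HF, were not among the results counted. Hexa, Psap, Ctsz and Ctsb in HF+CR against HF passed in every alternative run. With array weights the counts of members past the threshold were 15 for HF+CR against HF, 4 for HF against LF, 8 for LF+CR against LF+Ex, 5 for HF+CR against HF+Ex, 1 for HF+Ex against LF+Ex, 9 for the restriction-by-diet interaction and 18 for the F-test. With a clock covariate (log2 Arntl minus log2 Dbp) they were 12, 1, 6 (HF+CR against HF+Ex), 1 (HF+Ex against LF+Ex) and 8 (interaction). Quantile normalization gave 1 for HF+Ex against LF+Ex, and the mean of a gene's probe sets gave 7 for LF+CR against LF+Ex. Without LF+CR 2, HF 1 and HF+Ex 3 the counts were 1 each for HF against LF, LF+CR against LF and HF+Ex against LF+Ex. Without the 4 arrays with pancreatic transcripts they were 0 for LF+CR against LF, HF+CR against HF+Ex and the interaction, 1 for LF+CR against LF+Ex and the F-test, and 4 for HF+CR against LF+CR. Fits of the compared groups alone gave 0 for LF+CR against LF and HF+CR against HF+Ex, 2 for LF+CR against LF+Ex and 3 for HF+CR against LF+CR. The causes were not tested. In this and the other paragraphs, counts under an alternative are given without the share of all genes past the threshold there. By themselves they therefore show no excess over other genes.

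Leaving out 1 array at a time gave 4 to 7 members for HF+CR against HF, 1 to 5 for LF+CR against LF, 2 to 5 for LF+CR against LF+Ex, 0 to 4 for HF+CR against HF+Ex, 3 to 8 for HF+CR against LF+CR, 0 to 6 for the interaction and 5 to 12 for the F-test. It gave 0 throughout for HF against LF, HF+Ex against LF+Ex, both running comparisons and the running-by-diet interaction. With the replicate number as a block, 5 members passed in HF+CR against HF, 2 in LF+CR against LF, 1 in HF+CR against HF+Ex and 2 in the interaction. Same-numbered arrays did not deviate together in the median (45 pairs, correlations from -0.412 to 0.329, median -0.048, 9 over 0.1). Such correlations over all genes cannot exclude a pairing or batch that touches few genes, so whether the numbers pair the mice is not known.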
